A study of Rattus norvegicus with 12 samples.

Results

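Rat cardiac fibroblasts that carried viral Sall4 and Gata4 and had been kept in a differentiation medium with EGM2, a supplement for endothelial cell culture, were set against the fibroblasts they came from. The libraries were chosen by their labels, which gave 6 of the 12 libraries of the study, 3 biological replicates in each group. GS_diff2 are GS cells, that is, immortalized rat cardiac fibroblasts with viral overexpression of Sall4 and Gata4, placed in CMM medium plus EGM2 solution. GS, with a further 3 libraries, are the same cells left undifferentiated, and were used only to say which differences from RCF were already present before the medium and which had returned to the RCF level. RCF are the untreated, wild-type (WT) parental cells, primary cultures of rat cardiac fibroblasts from the heart. GS_diff2 and RCF thus differ in the viral factors, in immortalization and in the medium, and the contributions of these cannot be told apart. No library holds RCF kept in the same medium. The labels do not spell out CMM, and the rat strain, the age of the animals, the days in medium, and whether GS is 1 clone or a pool are not stated in the sources used here. Replication at the level of separate cultures rests on the design text, and the p-values measure the spread between these libraries.

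Cardiac fibroblasts are stromal cells of the heart that make and remodel its collagen-rich matrix, and many descend from the epicardium, whose transcription factors Tcf21 and Wt1 mark that origin. Sall4 is a transcription factor with zinc fingers, active in pluripotent, germ line and early embryonic cells, and Gata4 is a zinc finger factor that acts in heart, endoderm and gonad development. Cells that take on a heart muscle or endothelial fate are known by contractile proteins of the sarcomere, such as Myh6 and Tnnt2, or by junction and receptor proteins of vessels, such as Cdh5 and Kdr.

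The 6 libraries held 18905219 to 23117864 counts each and detected 16399 to 16707 genes. Levels are normalised read counts scaled to library size (CPM), given per library in replicate order or as a mean ± SD (n = 3), and they compare groups, not genes of different length. Beside a log2 fold change, ± gives the standard error, and an adjusted p is from edgeR's quasi-likelihood test over 14399 tested genes, called at 0.05. The first principal component, with 58.0% of the variance, placed the RCF libraries apart from all others, and the second, with 19.5%, placed the GS_diff2 libraries apart from the rest. Genes of the mitochondrial DNA took 1.83 ± 0.0345% of counts in GS_diff2, 0.244 ± 0.00214% in GS and 2.21 ± 0.0390% in RCF. Unless stated otherwise, the libraries of GS_diff2 and RCF did not overlap for a gene described as higher or lower.

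The defining markers of cardiac fibroblasts were read as a check of the labelled cell type. Of 8 markers, 7 were detected in GS_diff2, where the sum of the 8 was 29025 to 29393 CPM, against 40827 to 43983 CPM in RCF, which had all 8. The missing marker was Tcf21, at 0 counts in each GS_diff2 library. Most of both sums was Col1a1, at 18150 CPM in GS_diff2 and 28307 CPM in RCF. Pdgfra, Thy1 and Vim were higher in GS_diff2, and the other markers of this set were lower. In these bulk libraries, fewer cells of a type and less RNA per cell cannot be told apart. Apart from Tnnt2, cardiomyocyte markers were low in both groups, with Myh7, a myosin of the cardiac thick filament, at 0 in all 9 libraries read. The 7 cardiomyocyte markers summed to 36.0 to 37.9 CPM in GS_diff2 and 15.8 to 17.0 CPM in RCF, of which 34.1 and 15.1 CPM were Tnnt2 alone. The 6 endothelial markers summed to 17.8 to 19.3 CPM in GS_diff2 and 13.6 to 17.2 CPM in RCF, of which 13.6 and 13.05 CPM were Tek, the angiopoietin receptor. Cdh5, the cadherin of endothelial junctions, had 1 to 3 counts per GS_diff2 library and 0 to 2 per RCF library. Kdr, the main receptor for the vessel growth factor VEGF, had 0 to 1 counts in GS_diff2 and 6 to 18 in RCF. Pecam1 was not analysed here. By these markers, the differentiation in the label of GS_diff2 names a treatment and not a measured cell type, and the group is called by its label below.

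GS_diff2 differed from RCF in most tested genes. The test called 10435 of 14399 (72.5%), with 5336 higher in GS_diff2 (37.1%) and 5099 lower (35.4%). The libraries of the groups did not overlap for 10994 genes (76.4%). At 2-fold or more, 4198 genes were called (29.2%), 2391 higher (16.6%) and 1807 lower (12.5%). These shares are the background for every gene group below, and the median log2 fold change over all tested genes was 0.01. GS against RCF called 10262 genes (71.3%), of which 3733 were at least 2-fold apart (25.9%), and GS_diff2 against GS called 9651 (67.0%).

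Of the 4198 genes at least 2-fold apart between GS_diff2 and RCF, 2332 (55.6%) were called at 2-fold or more in the same direction in GS as well, 1416 higher and 916 lower. A further 1498 genes (35.7%) were under 2-fold in GS and were called between GS_diff2 and GS in the direction of the difference, 765 higher and 733 lower. These are called new in GS_diff2 below. The difference ran the opposite way in GS for 142 genes, and 226 fell in none of these classes. In the other direction, 3733 genes were at least 2-fold apart between GS and RCF. Of these, 262 (7.02%) were back at the RCF level in GS_diff2, with a 95% interval inside 1.5-fold either way. The same 2332 genes kept their difference at 2-fold or more, 142 had reversed, and 997 fell in none of these classes. Both comparisons use the same RCF libraries, so these counts describe the 9 libraries and are not a test of overlap.

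**Figure D1:**
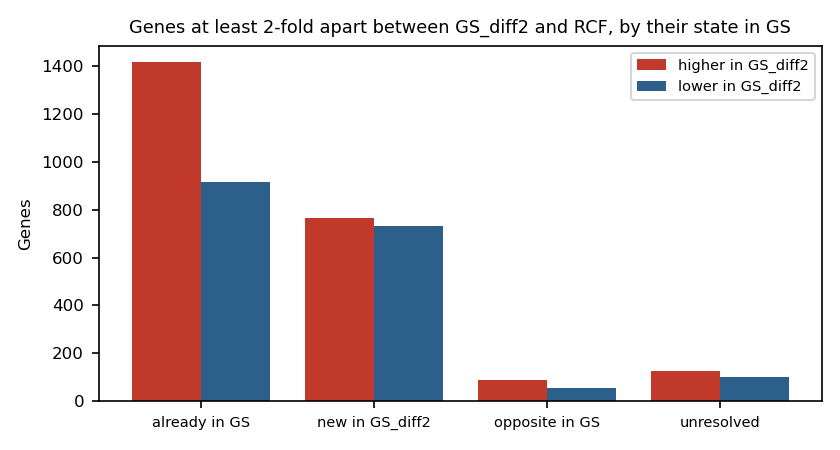
Genes called at 2-fold or more between GS_diff2 and RCF, counted on the vertical axis by what the same gene did in GS, with genes higher in GS_diff2 as red bars and lower as blue bars. The bars for genes already apart in GS are the tallest, 1416 higher and 916 lower, ahead of 765 and 733 for genes new in GS_diff2.

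Sall4 and Gata4, the overexpressed factors, stood at different distances from RCF. Sall4, gene ENSRNOG00000050035, Rnor_6.0 chromosome 3, 165520392 to 165537940, minus strand, reached 68.9, 67.5 and 72.4 CPM in GS_diff2, against 0 counts in each RCF library. Taking 3 counts per library as the floor that a count of 0 allows, it was at least 494-fold higher (adjusted p = 6.32e-31); such floors cover counting error only. Gata4 (ENSRNOG00000010708, Rnor_6.0 chromosome 15, 46386712 to 46432965, minus strand) had 281, 286 and 289 CPM in GS_diff2 and 203, 206 and 209.8 CPM in RCF, so parental fibroblasts had it too. The groups did not overlap, and the difference was 1.38-fold (log2 0.47 ± 0.029, adjusted p = 4.33e-15). In GS the same genes stood at 246 ± 8.58 and 595 ± 7.21 CPM, so that both were lower in GS_diff2 than in GS, and Gata4 in GS_diff2 was within 1.5-fold of RCF. Reads from the viral and the rat copies cannot be separated in these counts.

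Of the genes of pluripotent and early embryonic cells that could be tested, most were higher in GS_diff2. Of 34 listed, 31 were in the table and 18 were tested, of which 13 were higher and 4 lower, with a median log2 of 2.61 (2.35 with genes at 0 counts set to their floor). The 13 members in the table that did not pass the filter include core factors of pluripotent cells. Nanog had 0 counts in every GS_diff2, GS and RCF library, Sox2 had 0 counts in each GS_diff2 library and 4, 0 and 2 counts in RCF, and Esrrb had 0, 0 and 1 counts in GS_diff2 and 0, 2 and 2 counts in RCF. Here and in every list, a gene that RCF lacks was tested only because other groups hold it, so a list's count is not support for its direction. Lin28a, an RNA-binding protein that blocks maturation of let-7 microRNAs, had 36.4, 36.96 and 32.2 CPM in GS_diff2 and 0 counts in RCF, at least 249.6-fold higher (adjusted p = 1.25e-27). Sall1, a relative of Sall4 known from kidney development, averaged 44.04 ± 1.39 CPM in GS_diff2 with 1 count in the 3 RCF libraries together (adjusted p = 1.91e-28). Both were higher still in GS, at 169.6 and 109 CPM. The called falls included Klf2, a Krüppel-like factor of pluripotent and endothelial cells, at 10.7 ± 0.2304 CPM in GS_diff2 and 95.5 ± 1.41 CPM in RCF, 8.91-fold lower (log2 -3.16 ± 0.064, adjusted p = 2.72e-27). Dppa4, a chromatin protein of early embryos, was 8.43-fold lower, and Sall2, another member of the family, 1.41-fold lower (log2 -0.50 ± 0.11, adjusted p = 0.00018).

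The genes furthest above RCF were ones that the fibroblasts lacked or nearly lacked, among them genes of embryonic and epithelial cells. Sox17 (ENSRNOG00000027357, Rnor_6.0 chromosome 5, 14890408 to 14895907, plus strand), an endoderm and vessel transcription factor, had 292, 270.2 and 285 CPM in GS_diff2 and 0 counts in all RCF libraries, at least 2004-fold higher (adjusted p = 3.32e-36). Krt18, a keratin of simple epithelia, had 147, 150.2 and 149 CPM against 0, at least 1057-fold higher (adjusted p = 4.49e-35). Lad1, an anchoring filament protein of basement membranes, averaged 85.8 ± 3.02 CPM in GS_diff2 and RT1-CE16, a rat class I histocompatibility gene with close relatives that could share its reads, 79.7 ± 3.39 CPM, both with 0 counts in RCF. They were at least 609-fold and at least 566-fold higher (adjusted p = 6.21e-30 and 5.01e-29). Tnn, the matrix glycoprotein tenascin-W, stood at 755, 749 and 762 CPM in GS_diff2 and 0.127, 0.0513 and 0.142 CPM in RCF (log2 12.68 ± 0.069, adjusted p = 2.54e-41). Pitx1, a homeobox factor of hindlimb and pituitary, stood at 145, 146 and 137 CPM in GS_diff2, with 1 count in the 3 RCF libraries together. Of these, Sox17 was lower in GS_diff2 than in GS (log2 -1.33, adjusted p = 7.56e-24), while Tnn and Pitx1 had no call between GS_diff2 and GS (log2 0.02, adjusted p = 0.566 for Tnn). Muc3, a membrane mucin of the gut lining, had 42.1 ± 2.98 CPM in GS_diff2 and 0 counts in RCF, at least 299-fold higher, and was higher than in GS (log2 2.36, adjusted p = 7.28e-17). In all, 120 genes were at 0 counts in RCF, called higher and at 1 CPM or more in GS_diff2. Of the 71 with a promoter in the RefSeq table (GRCr8, 250 bases before to 50 after the start), 9 (12.68%) held the GATA letters AGATAA on either strand, against 591 of 9823 tested genes with a promoter (6.016%); these genes were chosen by their values, and a match is no sign of binding.

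A microRNA locus was among the largest rises, and its mature sequences are shown because the table counts reads over the locus and not the mature forms. Mir675 (ENSRNOG00000040350, Rnor_6.0 chromosome 1, 215745981 to 215746064, minus strand) is processed from an exon of the imprinted noncoding RNA H19, which was not analysed here, and reads of H19 over the locus cannot be told apart from those of the hairpin. It had 68.1, 61.8 and 65.9 CPM in GS_diff2, 38.2 ± 0.6800 CPM in GS and 0 counts in RCF, in GS_diff2 at least 464-fold higher than in RCF (adjusted p = 3.11e-21). The mature strands from RefSeq (GRCr8, chromosome 1, minus strand), with the seed at bases 2 to 8 in capitals, carry different seeds.
rno-miR-675-5p: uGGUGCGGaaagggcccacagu
rno-miR-675-3p: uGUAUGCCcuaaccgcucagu

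Epithelial genes were mostly higher. Of 33 listed, 29 were tested, 23 were higher and 2 lower, with a median log2 of 4.22 (4.15 at the floor), and 22 were already higher at 2-fold or more in GS. Cdh1, the junction protein E-cadherin, had 249, 258 and 252 CPM in GS_diff2 and 0.0422, 0.359 and 0.142 CPM in RCF, 1426-fold higher (log2 10.48 ± 0.1, adjusted p = 1.46e-32), and log2 11.37 without RCF replicate 2, the highest of the RCF libraries. Cldn6, a tight junction claudin of embryonic epithelium, averaged 38.3 ± 2.22 CPM against 0 counts, at least 272-fold higher, and Esrp1, a splicing regulator of epithelial cells, 28.9 ± 1.96 CPM against 0 counts, at least 205-fold higher. The 4 epithelial markers (Epcam, Cdh1, Krt8, Krt18) summed to 696 to 714 CPM in GS_diff2, 594 to 611 CPM in GS and 0.845 to 1.39 CPM in RCF. The 2 called falls were Pkp2, 3.54-fold lower (adjusted p = 2.88e-07), and Jup, 1.48-fold lower (adjusted p = 1.55e-13), both desmosome genes. Other desmosome genes of the list rose. Pkp3 had 21.8 CPM in GS_diff2 against 0 CPM in RCF, and Dsp 66.3 against 38.9 CPM. 

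Of 27 listed endoderm and liver genes, 10 were tested and each of the 10 was higher, with a median log2 of 4.11. Hnf4a, a nuclear receptor of liver and gut, had 2.800, 3.77 and 2.92 CPM in GS_diff2 and 0 counts in RCF, at least 22.5-fold higher (adjusted p = 3.8e-14). The 17 members that did not pass the filter include the secreted liver proteins Alb, Afp and Ttr, so the tested members are the transcription factors and a few uptake receptors.

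**Figure D2:**
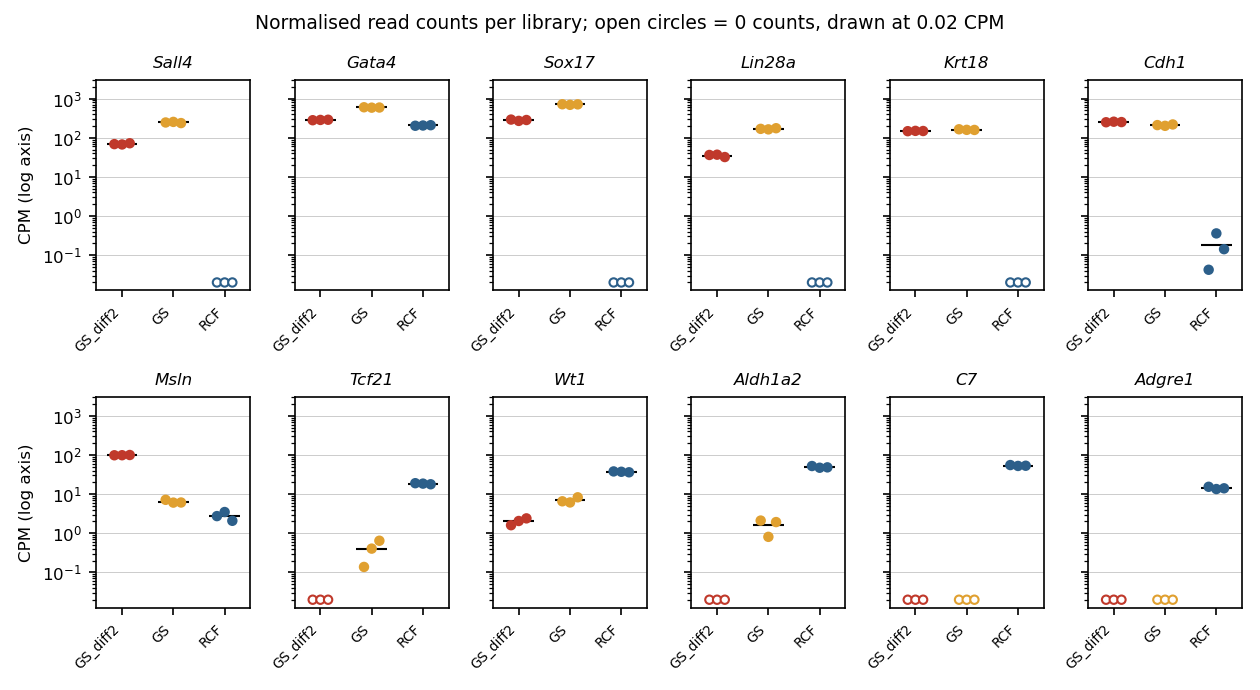
Normalised read counts per library (CPM, log axis) for 12 genes in GS_diff2, GS and RCF, with 1 circle a library, a bar at the mean, and open circles at the bottom for 0 counts. Sall4, Sox17, Lin28a and Krt18 have 0 counts in RCF, while Tcf21, Aldh1a2, C7 and Adgre1 have 0 counts in GS_diff2.

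Cardiac progenitor factors moved both ways. Of 34 listed, 29 were tested, 21 were higher and 5 lower, with a median log2 of 1.14 (0.80 at the floor). Nkx2-5, the homeobox factor of early heart muscle, had 2.28, 1.796 and 1.67 CPM in GS_diff2 and 0 counts in RCF, at least 13.6-fold higher (adjusted p = 2.29e-11), and was lower than in GS (log2 -0.82, adjusted p = 0.0199). Hand1, a basic helix-loop-helix factor of the early ventricle, had 10.7, 9.81 and 11.2 CPM against 2 counts in the 3 RCF libraries together. Eomes, a T-box factor of early mesoderm, had 11.3 ± 0.366 CPM in GS_diff2 and 0.0862 ± 0.111 CPM in RCF (log2 6.84 ± 0.37, adjusted p = 1.59e-15, and log2 8.52 without RCF replicate 1, which held 5 of the 6 RCF counts). Against these, Tbx5 and Tbx20, T-box factors of heart chambers that parental fibroblasts express, fell. Tbx5 had 0.519, 0.482 and 0.574 CPM in GS_diff2 and 2.75, 2.93 and 2.32 CPM in RCF, 5.04-fold lower (log2 -2.33 ± 0.38, adjusted p = 3.2e-06), a fall that was new in GS_diff2. Tbx20 was 4.196-fold lower (log2 -2.07 ± 0.12, adjusted p = 1.24e-15) and Zfpm2, the Gata4 cofactor FOG2, 3.38-fold lower (log2 -1.76 ± 0.098, adjusted p = 3.41e-16).

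Sarcomere genes showed single rises of low level. Of 45 listed cardiomyocyte genes, 26 were tested, with 14 higher, 5 lower and 7 not called, a median log2 of 1.21. Tnni1, the slow skeletal troponin I that the fetal heart also uses, had 15.7, 17.6 and 12.4 CPM in GS_diff2, 0.536 ± 0.133 CPM in GS and 0 counts in RCF, at least 108-fold higher (adjusted p = 2.67e-19). Mybpc3, the myosin-binding protein C of heart muscle, had 26.1, 22.2 and 26.8 CPM against 0 counts, at least 178-fold higher (adjusted p = 2.89e-13), and Myl3, a myosin light chain of ventricle and slow muscle, 39.02 ± 4.801 CPM against 1 count in RCF. Each of these 3 has every GS_diff2 library above every RCF library. All 3 were already 2-fold or more above RCF in GS, with Mybpc3 at 16.1 CPM and Myl3 at 53.6 CPM there. Tnnt2, cardiac troponin T, had 34.4, 33.6 and 34.3 CPM in GS_diff2 and 16.01, 14.8 and 14.5 CPM in RCF, 2.26-fold higher (log2 1.17 ± 0.11, adjusted p = 2.97e-11), while GS stood below both at 1.96 ± 0.0552 CPM. Tnni3, the troponin I of adult heart, followed the same order at 1.84 ± 0.4402 CPM in GS_diff2, 0.1201 ± 0.116 CPM in GS and 0.563 ± 0.0547 CPM in RCF (log2 1.69 ± 0.48, adjusted p = 0.00232).

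Other cardiomyocyte genes fell or were not called. Cryab, a small heat shock protein of muscle that the fibroblasts also held, had 86.7, 84.2 and 86.2 CPM in GS_diff2 and 1322, 1299 and 1313 CPM in RCF, 15.3-fold lower (log2 -3.94 ± 0.049, adjusted p = 2.16e-22). The sodium-calcium exchanger Slc8a1 was 4.81-fold lower and the stretch-induced Ankrd1 4.55-fold lower (adjusted p = 1.76e-22 and 1.14e-20). Myh6, the alpha myosin heavy chain of heart, had 0.104, 0.219 and 0.4700 CPM in GS_diff2 and 0, 0 and 0.237 CPM in RCF, with overlapping libraries and no call (log2 1.67 ± 0.96, adjusted p = 0.117). Actn2, the alpha-actinin of the Z-disc, had 0.105 ± 0.139 CPM in GS_diff2 and 0.351 ± 0.161 CPM in RCF (log2 -1.57 ± 0.75, adjusted p = 0.061). Both rest on a few counts per library, and both were called by limma-voom. Without RCF replicate 3, the RCF library that had Myh6, the gene was at 0 counts in RCF and was called. Actn2 was called without RCF replicate 1 (log2 -1.92) and without GS_diff2 replicate 2, which held 6 of its 7 GS_diff2 counts (log2 -3.44).

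Endothelial genes that rose included transcription factors, a connexin and receptors. Cdh5 and Kdr, given above, did not pass the filter and had at most 3 counts in any GS_diff2 library. Kdr had more in RCF, with 6 to 18 counts per library. Of 48 listed, 34 were tested, 18 were higher and 8 lower, with a median log2 of 0.82. Sox7, a relative of Sox17 active in early vessels, had 21.7, 22.9 and 23.6 CPM in GS_diff2 and 0, 0.103 and 0.237 CPM in RCF, 197-fold higher (log2 7.62 ± 0.2, adjusted p = 3.28e-24, and log2 6.99 to 8.75 with 1 library left out). GS already held Sox7, at a mean of 66.3 CPM. Gja4, the connexin 37 of arterial endothelium, had 10.2, 11.8 and 10.7 CPM in GS_diff2 and 0.169, 0.308 and 0.237 CPM in RCF, 45.3-fold higher (log2 5.50 ± 0.33, adjusted p = 3.33e-15). Gja4 was new in GS_diff2, since GS had only 0.216 ± 0.0811 CPM. Lyve1, a hyaluronan receptor of lymphatic endothelium and some macrophages, had 3.34 ± 0.368 CPM in GS_diff2 and 0.0641 ± 0.0335 CPM in RCF, 48.6-fold higher (adjusted p = 2.56e-09). Vwf, the clotting factor stored by endothelial cells, was at 3.53, 3.99 and 3.45 CPM in GS_diff2 and 0.929, 1.18 and 0.568 CPM in RCF, 4.09-fold higher (log2 2.03 ± 0.34, adjusted p = 4.03e-06).

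Further called rises in the list included the VEGF receptor Flt1, Esm1 and Gata2 (log2 4.22, 3.64 and 2.58), against 8 called falls. Of the other endothelial genes named here, Erg was called higher on few counts, and the rest were lower or not called. Eng, the TGF-beta co-receptor endoglin, had 113, 109.7 and 112 CPM in GS_diff2 and 481, 491 and 489 CPM in RCF, 4.37-fold lower (log2 -2.13 ± 0.051, adjusted p = 5.99e-19). Nrp1, a co-receptor of VEGF and semaphorins, was 4.86-fold lower (log2 -2.28 ± 0.05, adjusted p = 1.65e-26), and Flt4, the VEGF receptor of lymphatics, 2.78-fold lower (log2 -1.48 ± 0.36, adjusted p = 0.000543). Tek had 14.8, 12.7 and 13.2 CPM in GS_diff2 and 11.3, 14.6 and 13.2 CPM in RCF, which overlap (log2 0.06 ± 0.13, adjusted p = 0.684, 95% interval -0.20 to 0.32), and its direction turned without GS_diff2 or RCF replicate 1 (log2 -0.01 and -0.03). Tie1, its partner receptor, had 10 to 19 counts per GS_diff2 library and 15 to 20 per RCF library (log2 -0.27 ± 0.47, adjusted p = 0.612). Erg, an ETS factor that maintains endothelial identity, had 4 to 9 counts per GS_diff2 library against 0 in RCF (adjusted p = 2.1e-06) and was lower than in GS (log2 -2.19, adjusted p = 8.4e-06).

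Smooth muscle contractile genes were lower on balance. Of 24 listed, 22 were tested, 7 were higher and 12 lower, with a median log2 of -0.43. Acta2, the alpha-actin of smooth muscle and myofibroblasts, had 8.401, 10.9 and 10.2 CPM in GS_diff2 and 195, 202 and 197 CPM in RCF, 19.98-fold lower (log2 -4.32 ± 0.056, adjusted p = 2.72e-27). Myl9, a regulatory light chain of myosin, had 1.35, 1.23 and 0.992 CPM in GS_diff2 and 30.7, 29.6 and 33.1 CPM in RCF, 26.01-fold lower (log2 -4.70 ± 0.14, adjusted p = 1.11e-22), and Tagln, an actin-bundling protein, was 4.16-fold lower (log2 -2.06 ± 0.033, adjusted p = 4.57e-30). GS libraries lay between the groups for all 3, at 88.4, 10.9 and 314 CPM. Smtn, a structural protein of contractile smooth muscle, was the largest rise at 256 ± 4.36 CPM in GS_diff2 and 79.5 ± 1.395 CPM in RCF (log2 1.68 ± 0.033, adjusted p = 1.12e-27). Csrp2 and Cnn1, actin-associated proteins, were 2.700-fold and 2.53-fold higher, and Myh11, the smooth muscle myosin heavy chain, overlapped between the groups (log2 -0.13 ± 0.25, adjusted p = 0.645).

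Among 9 tested pericyte genes, 4 were higher and 4 lower, 44.4% each, against 37.1% and 35.4% of all tested genes. Pdgfrb, the PDGF receptor of pericytes and fibroblasts, had 89.2, 95.1 and 89.9 CPM in GS_diff2, 1097 ± 10.6 CPM in GS and 892, 909 and 914 CPM in RCF, 9.89-fold lower (log2 -3.31 ± 0.031, adjusted p = 7.97e-36). Pdgfra, its partner receptor and a fibroblast marker, went the other way at 464, 465 and 461 CPM in GS_diff2, 688 ± 31.8 CPM in GS and 96.2, 103 and 92.8 CPM in RCF, 4.76-fold higher (log2 2.25 ± 0.036, adjusted p = 8.24e-30). Of the paired PDGF receptors, the difference in Pdgfrb was thus new in GS_diff2 and that in Pdgfra already there in GS. Cspg4, the proteoglycan NG2 of pericytes and progenitors, was 7.81-fold higher (log2 2.96 ± 0.047, adjusted p = 5.43e-29). Ndufa4l2 and Cox4i2, subunits of the respiratory chain used by pericytes and in hypoxia, were 11.3-fold and 7.32-fold higher. Anpep, an aminopeptidase of pericytes and macrophages, and Notch3, the mural cell Notch receptor, were 4.497-fold and 3.88-fold lower (adjusted p = 1.27e-16 and 2.47e-10).

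**Figure D3:**
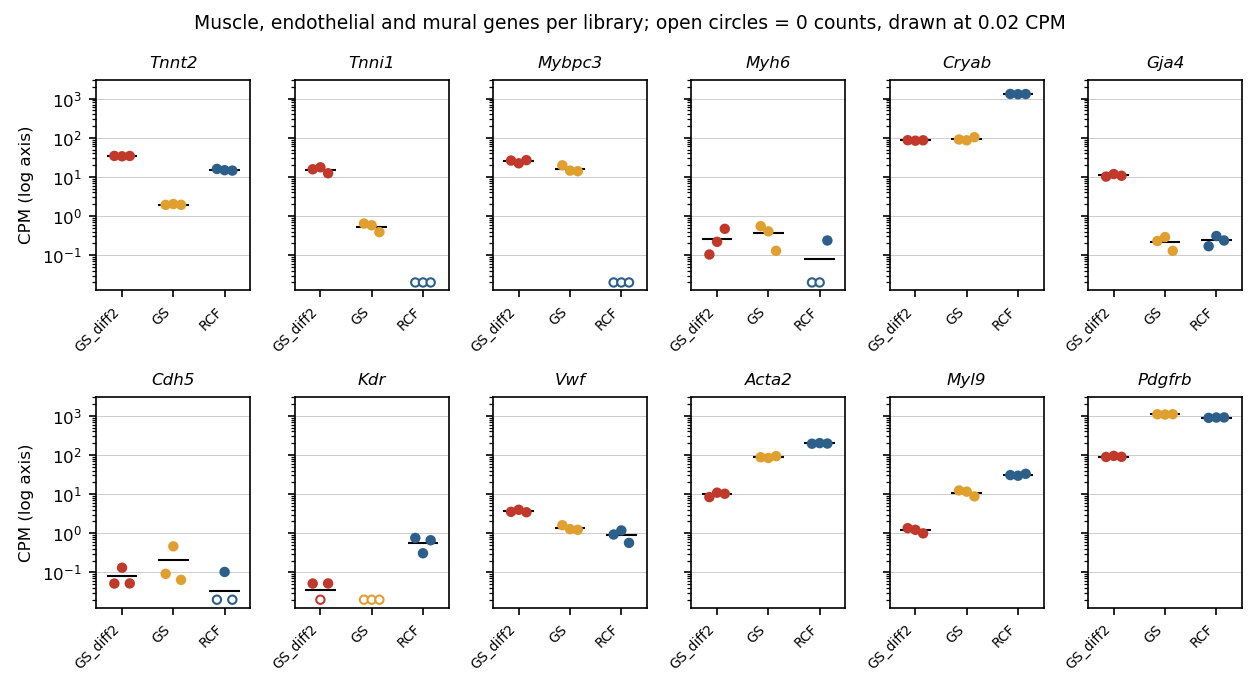
Normalised read counts per library (CPM, log axis) for muscle, endothelial and mural genes in GS_diff2, GS and RCF, with 1 circle a library, a bar at the mean and open circles at the bottom for 0 counts. Tnni1, Mybpc3 and Gja4 are higher in GS_diff2 than in RCF, Cryab, Acta2, Myl9 and Pdgfrb are lower, and Cdh5 and Kdr have at most 18 counts in any library of GS_diff2 and RCF.

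Fibroblast identity genes split, 13 higher and 12 lower of 26 tested (29 listed), with a median log2 of 0.25. Tcf21 (ENSRNOG00000016700, Rnor_6.0 chromosome 1, 23906717 to 23909566, plus strand), the epicardial and fibroblast transcription factor, had 0 counts in GS_diff2, 0.395 ± 0.253 CPM in GS and 19.05, 18.6 and 17.9 CPM in RCF, at least 125-fold lower in GS_diff2 than in RCF (adjusted p = 2.35e-09). Dcn, the collagen-binding proteoglycan decorin, had 0.104, 0.526 and 0.627 CPM in GS_diff2 and 31.1, 33.2 and 34.1 CPM in RCF, 76.4-fold lower (log2 -6.25 ± 0.44, adjusted p = 2.82e-07), and Cthrc1, a secreted protein of activated fibroblasts, was 147-fold lower (log2 -7.20 ± 0.3, adjusted p = 3.25e-19). Ddr2, a collagen receptor of fibroblasts, was 2.48-fold lower (log2 -1.31 ± 0.045, adjusted p = 1.79e-20). Rises were seen in the same list. Lum, the proteoglycan lumican, had 92.5 ± 5.57 CPM in GS_diff2 and 11.2 ± 1.29 CPM in RCF, 8.195-fold higher (log2 3.03 ± 0.069, adjusted p = 5.12e-26), and Mfap5, a microfibril protein, was 4.57-fold higher. Thy1 and Vim, broad mesenchymal markers, were 1.38-fold and 1.11-fold higher (adjusted p = 1.2e-12 and 1.57e-07).

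Collagens were likewise split, 12 higher and 15 lower of 31 tested (42 listed). These are 38.7% and 48.4%, against 37.1% and 35.4% of all tested genes. The fibrillar collagen Col1a1 had 18152, 18059.7 and 18238 CPM in GS_diff2 and 28596, 28553 and 27774 CPM in RCF, 1.56-fold lower (log2 -0.64 ± 0.022, adjusted p = 8.83e-18), and Col3a1 was 1.66-fold lower (log2 -0.73 ± 0.022, adjusted p = 8.62e-23). Col1a2, which pairs with Col1a1 in type I collagen, spread widely within groups, with 1148, 1505 and 1474 CPM in GS_diff2 and 4404, 2668 and 2202 CPM in RCF (log2 -1.17 ± 0.43, adjusted p = 0.0361). With 1 of these 6 libraries left out, the log2 was -1.36 to -0.82, and the call was lost in 5 cases, all but that without RCF replicate 3. The microfibrillar collagen Col6a3 (ENSRNOG00000019648, Rnor_6.0 chromosome 9, 97926787 to 98004546, minus strand) had 2660.4, 2686 and 2706 CPM in GS_diff2 and 137, 139 and 132 CPM in RCF, 19.7-fold higher (log2 4.30 ± 0.039, adjusted p = 2.87e-29). Collagens of other kinds rose too. Col18a1, a basement membrane collagen, was 7.64-fold higher, and the transmembrane Col23a1 38.1-fold higher (adjusted p = 2.63e-31 and 4.89e-18). Col14a1, which binds fibril surfaces, was 15.1-fold lower (log2 -3.92 ± 0.045, adjusted p = 1.55e-33), and the basement membrane chains Col4a4 and Col4a6 were 17.8-fold and 8.01-fold lower.

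The other matrix genes included some of the highest rises by level. Among 36 tested elastic fibre and matricellular genes, 18 were higher and 14 lower. Spp1, the secreted phosphoprotein osteopontin, had 3098, 3170.4 and 3229.8 CPM in GS_diff2, 182 ± 5.19 CPM in GS and 57.4, 56.5 and 59.9 CPM in RCF, 54.7-fold higher than in RCF (log2 5.77 ± 0.034, adjusted p = 1.54e-40). Tgfbi, a TGF-beta-induced adhesion protein, had 67.99, 58.6 and 63.7 CPM in GS_diff2, 1.45 ± 0.584 CPM in GS and 0.507, 2.16 and 0.899 CPM in RCF (log2 5.78 ± 0.38, adjusted p = 6.99e-07, and log2 6.501 without RCF replicate 2, the highest RCF library). It was new in GS_diff2. Spon1, a matrix protein of the spondin family, had 2.71 ± 0.232 CPM in GS_diff2 and 143 ± 5.33 CPM in RCF, 53.02-fold lower (log2 -5.73 ± 0.09, adjusted p = 3.95e-30). The fibulin Efemp1 was 10.5-fold lower (log2 -4.13 without GS_diff2 replicate 3) and the tenascin Tnxb 7.49-fold lower.

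Among 23 tested proteoglycan genes, 10 were higher and 8 lower, with a median log2 of 0.80. These are 43.5% and 34.8%, near the 37.1% and 35.4% of all tested genes. Acan, the cartilage proteoglycan aggrecan, had 320.3, 319.6 and 313 CPM in GS_diff2 and 0.211, 0.359 and 0.473 CPM in RCF, 911-fold higher (log2 9.83 ± 0.11, adjusted p = 1.81e-29), and rose over GS as well (log2 3.87, adjusted p = 7.2e-26). Fmod, the small proteoglycan fibromodulin, had 622, 608 and 625 CPM in GS_diff2 and 10.8, 10.6 and 11.2 CPM in RCF, 56.8-fold higher (log2 5.83 ± 0.039, adjusted p = 1.57e-39). Decorin and fibromodulin, which both bind collagen fibrils, thus moved in opposite directions. Gpc3, a cell surface glypican of embryonic tissue, was 9.36-fold higher, and Sdc2, a syndecan of fibroblasts, 1.99-fold lower (adjusted p = 9.65e-25 and 2.13e-22).

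Matrix proteases and their inhibitors showed 16 rises and 15 falls among 32 tested. Serpine2, an inhibitor of thrombin and plasminogen activators, had 1887, 1826 and 1921 CPM in GS_diff2 and 6.59, 7.903 and 8.19 CPM in RCF, 249-fold higher (log2 7.96 ± 0.048, adjusted p = 4.36e-39). Mmp3, the metalloproteinase stromelysin, had 57.98, 62.8 and 66.2 CPM in GS_diff2 and 0.0845, 0.411 and 0.331 CPM in RCF, 229.7-fold higher (log2 7.84 ± 0.26, adjusted p = 2.51e-13). Mmp23, a membrane-tethered metalloproteinase, was 20.02-fold lower (log2 -4.32 ± 0.12, adjusted p = 2.58e-23). The macrophage elastase Mmp12 had 0 counts in GS_diff2 and 6.88, 7.49 and 7.05 CPM in RCF, at least 48.3-fold lower, and the gelatinase Mmp9, common in leukocytes, was 8.31-fold lower (adjusted p = 8.21e-13 and 7.32e-09).

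Epicardial and mesothelial genes fell in 9 and rose in 5 of 15 tested members (16 listed), with a median log2 of -2.60, and all 9 falls were already there in GS at 2-fold or more. Aldh1a2, the enzyme that makes retinoic acid in the epicardium, had 0 counts in GS_diff2 and 52.3, 47.3 and 48.4 CPM in RCF, at least 334-fold lower (adjusted p = 5.74e-14). Wt1, the epicardial zinc finger factor, had 1.61, 2.06 and 2.402 CPM in GS_diff2 and 38.1, 37.3 and 36.2 CPM in RCF, 18.3-fold lower (log2 -4.20 ± 0.15, adjusted p = 2.55e-21). Upk3b, a membrane protein of mesothelium, and Bnc1, a mesothelial zinc finger factor, had 0 counts in GS_diff2 against 3.54 ± 0.185 and 2.06 ± 0.4096 CPM in RCF. The mesothelial surface protein Msln went against the rest, with 98.6, 98.9 and 100.2 CPM in GS_diff2 and 2.75, 3.49 and 2.08 CPM in RCF, 35.9-fold higher (log2 5.17 ± 0.11, adjusted p = 6.75e-27). Podxl, a surface sialomucin of podocytes, vessels and pluripotent cells, had 331 ± 8.58 CPM in GS_diff2 and 0.433 ± 0.0912 CPM in RCF, 749.5-fold higher (log2 9.55 ± 0.072, adjusted p = 3.74e-38).

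Macrophage and leukocyte genes were lower in GS_diff2, and 7 of those tested were at 0 counts there. Of 29 listed, 20 were tested, 16 were lower and 1 higher, with a median log2 of -3.62 (-3.14 at the floor), and the 16 falls were there in GS too. Lyz2, the lysozyme of myeloid cells, had 0 counts in GS_diff2 and 52.6, 56.9 and 57.9 CPM in RCF, at least 377-fold lower (adjusted p = 4.63e-19). Adgre1, the macrophage receptor F4/80, had 0 counts against 15.4, 13.5 and 14.1 CPM, at least 96.95-fold lower, and Cybb and Itgb2, of the phagocyte oxidase and the leukocyte integrins, also had 0 counts against 10.97 ± 1.99 and 7.101 ± 0.881 CPM. The 5 macrophage markers summed to 3.32 to 4.33 CPM in GS_diff2, 0.773 to 1.39 CPM in GS and 33.2 to 34.7 CPM in RCF, with Adgre1 and C1qa at 0 in GS_diff2, and most of the GS_diff2 sum was the lysosomal Cd68, at 3.41 CPM. The leukocyte marker Ptprc had 0 to 1 counts per GS_diff2 library and 35 to 42 per RCF library. Cd14, an endotoxin co-receptor that other cells can express, was the called rise, 1.698-fold higher (log2 0.76 ± 0.088, adjusted p = 6.09e-09).

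Immune genes that are not specific to leukocytes moved in the same libraries, and the part of the macrophage markers in them was not tested. Complement genes showed 8 rises and 7 falls among 19 tested (42.1% and 36.8%), near the 37.1% and 35.4% of all tested genes. C7 and C6, of the membrane attack complex, were at 0 counts and 0.502 ± 0.121 CPM in GS_diff2, against 55.4, 52.6 and 53.2 CPM and 47.6 ± 1.69 CPM in RCF, at least 363-fold and 93.1-fold lower (adjusted p = 2.76e-22 and 1.88e-24). C3, the central complement component, had 515, 522 and 531 CPM in GS_diff2 and 93.8, 88.8 and 92.5 CPM in RCF, 5.697-fold higher (log2 2.51 ± 0.034, adjusted p = 8.87e-32). The complement proteases Cfi and Masp1 were 20.2-fold and 8.14-fold higher.

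Cytokine and chemokine genes showed 8 rises and 18 falls among 32 tested, with a median log2 of -0.58. Ccl20, a chemokine for lymphocytes and dendritic cells, had 1.56, 1.18 and 1.201 CPM in GS_diff2 and 59.6, 54.2 and 60.2 CPM in RCF, 44.2-fold lower (log2 -5.46 ± 0.14, adjusted p = 4.81e-25). Cxcl6, a neutrophil chemokine, was 21.02-fold lower (log2 -4.39 ± 0.22, adjusted p = 1.34e-15). Cxcl10, a chemokine for T cells, had 153, 148 and 157 CPM in GS_diff2 and 15.96, 14.9 and 16.6 CPM in RCF, 9.62-fold higher (log2 3.27 ± 0.068, adjusted p = 4.09e-27). Il1rl1, the interleukin-33 receptor, had 84.5, 85.1 and 83.1 CPM in GS_diff2, 3.45 ± 0.282 CPM in GS and 10.3, 7.44 and 9.42 CPM in RCF, 9.23-fold higher (log2 3.21 ± 0.077, adjusted p = 2.25e-25), while GS lay below both.

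Interferon response genes showed 9 rises and 20 falls among 37 tested. Mx1, an antiviral GTPase, had 0.415, 0.964 and 0.574 CPM in GS_diff2 and 19.2, 17.7 and 18.3 CPM in RCF, 27.5-fold lower (log2 -4.78 ± 0.24, adjusted p = 2.59e-17), and its relative Mx2 and the antiviral Ifit2 were 7.02-fold and 8.58-fold lower. Cxcl10, often induced by interferon, moved against these, as did Oasl and Isg15, 2.97-fold and 1.97-fold higher (adjusted p = 2.16e-09 and 1.44e-07).

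Genes of the cell cycle were higher in GS_diff2 with hardly an exception. All 35 tested mitosis genes (36 listed) rose, with a median log2 of 1.89, and 35 of 36 DNA replication genes rose, with a median log2 of 1.71. Ccne1, a cyclin of the entry into S phase, was the gene with no call (log2 -0.15 ± 0.087, adjusted p = 0.118), and was called lower without GS_diff2 replicate 2 (log2 -0.26). Of these, 31 mitosis and 28 replication genes were new in GS_diff2. In GS the mitosis genes had 10 rises and 21 falls against RCF, with a median log2 of -0.25. The replication genes had 23 rises and 4 falls in GS, with a median log2 of 0.43. New, for these, thus means under 2-fold in GS and not level with RCF. The level of the 35 mitosis genes together was 4337 to 4488 CPM in GS_diff2, 1052 to 1079 CPM in GS and 1142 to 1156 CPM in RCF.

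Ckap2, a spindle protein, had 306, 304 and 308 CPM in GS_diff2 and 35.5, 37.2 and 41.1 CPM in RCF, 8.07-fold higher (log2 3.01 ± 0.073, adjusted p = 7.01e-15). Cdc20, the activator of the anaphase-promoting complex, had 220.2, 230.5 and 223 CPM in GS_diff2 and 44.1, 43.8 and 45.05 CPM in RCF, 5.06-fold higher (log2 2.34 ± 0.044, adjusted p = 4.14e-28), and Nuf2, a kinetochore protein, was 4.702-fold higher. Replication genes rose by similar factors. Cdt1 and Cdc6, which load the replicative helicase, had 66.1 ± 3.57 and 33.01 ± 1.74 CPM in GS_diff2 and 9.38 ± 0.864 and 4.696 ± 0.7301 CPM in RCF, 7.04-fold and 6.99-fold higher (adjusted p = 6.25e-24 and 1.1e-20). Uhrf1, which couples DNA methylation to replication, was 6.997-fold higher (log2 2.81 ± 0.062, adjusted p = 1.91e-26), and Mcm5, a subunit of that helicase, had 118, 111 and 104 CPM in GS_diff2 and 20.8, 21.04 and 20.02 CPM in RCF, 5.37-fold higher (log2 2.43 ± 0.064, adjusted p = 2.06e-24).

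Promoters of these genes are shown because they moved together. Known cell cycle promoters carry a CHR element and CCAAT boxes, in mitosis genes, or E2F sites, in replication genes. In windows of 250 bases before to 50 after the start (RefSeq, GRCr8), on both strands, the CHR letters TTTGAA occurred in 22 of 30 mitosis genes with a promoter in the table (73.33%), against 1137 of 9823 tested genes with one (11.57%). The letters CCAAT occurred in 23 of the 30 (76.67%) and in 37.22% of the 9823, and both motifs in 18 (60%), against 4.663%. The E2F letters TTTCCCGC or TTTGGCGC occurred in 11 of 27 replication genes (40.74%) and in 0 of 30 mitosis genes, against 2.84%. CCAAT also occurred in 18 of the 27 replication genes (66.67%), and CHR in 2 of them (7.407%). These matches describe the letters and show no binding. The 180 bases before the start are printed 5′ to 3′ with matches in capitals, none of which overlap. Cdc20 has 1 CHR match and 2 CCAAT, Ckap2 has 1 CHR match and 1 CCAAT, read from the other strand as ATTGG, and Mcm5 has 3 CCAAT and 1 E2F match at its end.
Cdc20 (chr5:137255800-137255979, minus strand): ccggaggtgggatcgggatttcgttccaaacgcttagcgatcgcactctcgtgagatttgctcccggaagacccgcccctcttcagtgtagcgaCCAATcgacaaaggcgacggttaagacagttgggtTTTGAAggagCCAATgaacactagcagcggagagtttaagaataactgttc
Ckap2 (chr16:76541934-76542113, plus strand): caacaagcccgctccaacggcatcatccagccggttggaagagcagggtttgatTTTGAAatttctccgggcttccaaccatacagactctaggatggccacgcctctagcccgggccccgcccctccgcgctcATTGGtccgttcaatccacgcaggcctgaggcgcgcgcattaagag
Mcm5 (chr19:13488633-13488812, plus strand): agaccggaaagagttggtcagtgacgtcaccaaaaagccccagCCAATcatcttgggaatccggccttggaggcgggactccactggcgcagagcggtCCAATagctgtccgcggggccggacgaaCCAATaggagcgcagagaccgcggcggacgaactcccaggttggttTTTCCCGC

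Cell cycle inhibitors and p53 targets did not fall with the rise of cell cycle genes, since 15 rose and 7 fell among 24 tested. Cdkn1c, the imprinted inhibitor p57, had 124, 118 and 121 CPM in GS_diff2 and 1 count in each RCF library (adjusted p = 2.22e-33). Cdkn2a, which encodes the inhibitors p16 and p19Arf, had 31.3, 58.6 and 47.2 CPM in GS_diff2 and 8.87, 7.54 and 7.003 CPM in RCF, 5.85-fold higher (log2 2.55 ± 0.31, adjusted p = 6.09e-05), with a wide spread among GS_diff2 libraries that stays clear of RCF. Gadd45a and Sesn2, stress genes of the p53 response, fell. Gadd45a had 80.7 ± 3.15 CPM in GS_diff2, 424 ± 1.75 CPM in GS and 272 ± 5.44 CPM in RCF, 3.37-fold lower than in RCF (log2 -1.75 ± 0.046, adjusted p = 2.26e-21). Sesn2 had 60.2 ± 0.777 CPM in GS_diff2, 386 ± 0.906 CPM in GS and 129.8 ± 1.38 CPM in RCF, 2.16-fold lower than in RCF (log2 -1.11 ± 0.035, adjusted p = 2.48e-22).

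**Figure D4:**
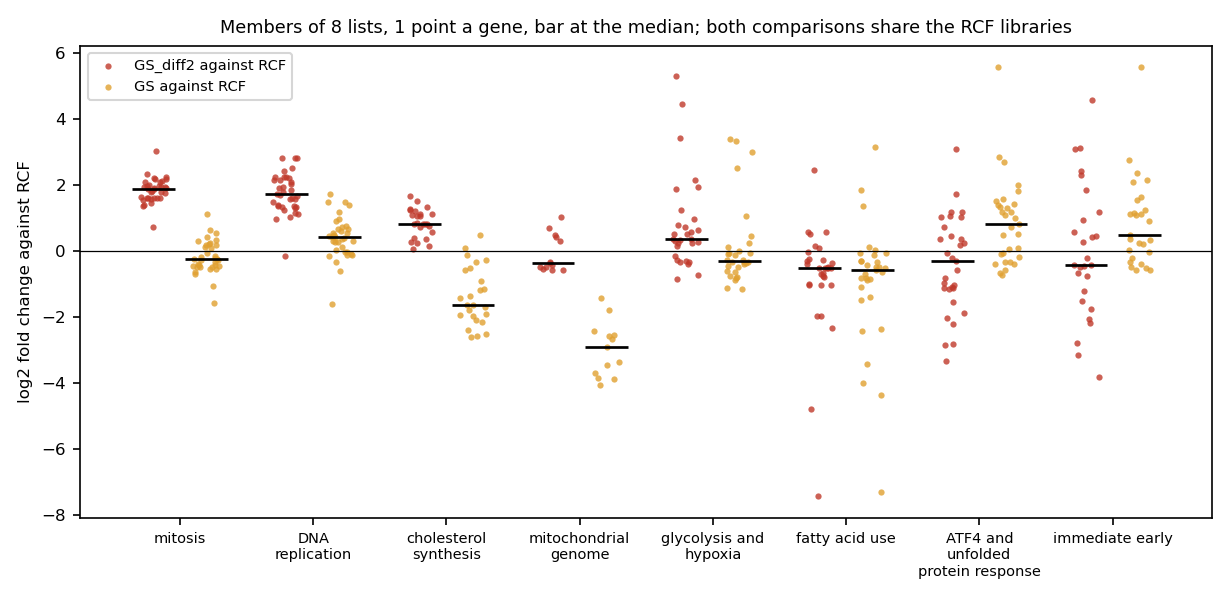
Log2 fold change against RCF (vertical axis) of the tested members of 8 gene lists, 1 point a gene with a bar at the median, for GS_diff2 in red and GS in yellow. Medians for GS_diff2 are 1.89 for mitosis, 1.71 for DNA replication and 0.82 for cholesterol synthesis, while in GS the mitochondrial genome and cholesterol genes lie below 0 with medians of -2.92 and -1.63.

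Cholesterol synthesis genes were higher than in RCF, although GS had been lower. Of 25 tested, 22 were higher and 0 lower, with a median log2 of 0.82, against 1 higher and 22 lower in GS with a median of -1.63. Msmo1, a sterol demethylase, had 294, 294 and 291 CPM in GS_diff2, 30.1 ± 2.37 CPM in GS and 96.1, 91.4 and 91.6 CPM in RCF, 3.15-fold higher than in RCF (log2 1.66 ± 0.041, adjusted p = 4.79e-25). Idi1, an isoprenoid isomerase, was 2.52-fold higher (log2 1.33 ± 0.054, adjusted p = 1.18e-19), with 103 CPM in GS_diff2, 6.805 CPM in GS and 40.9 CPM in RCF. The difference from RCF ran the opposite way in GS for 7 members, and 6 others were back within 1.5-fold of RCF. The letters CCAAT, bound in sterol promoters by NF-Y, occurred in 14 of 17 members with a promoter (82.35%), against 37.22% of the 9823 tested genes with one. The mitosis and replication genes, given above, had shares of 76.67% and 66.67%, so the letters are not particular to this list. The 180 bases before the start of Msmo1 and Idi1 show 3 and 2 of them in capitals, those of Idi1 on the other strand.
Msmo1 (chr16:29746933-29747112, plus strand): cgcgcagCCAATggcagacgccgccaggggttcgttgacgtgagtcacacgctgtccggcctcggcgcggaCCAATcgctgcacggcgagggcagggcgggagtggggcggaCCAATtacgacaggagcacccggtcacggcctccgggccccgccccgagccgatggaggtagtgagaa
Idi1 (chr17:66547525-66547704, minus strand): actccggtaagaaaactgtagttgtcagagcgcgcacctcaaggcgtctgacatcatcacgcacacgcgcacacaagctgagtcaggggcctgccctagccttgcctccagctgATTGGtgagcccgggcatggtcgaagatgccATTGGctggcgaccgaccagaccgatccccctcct

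Fatty acid genes were lower, 24 of 31 tested, with 2 higher and a median log2 of -0.52. Angptl4, a secreted inhibitor of lipoprotein lipase induced by fatty acids, had 2.44, 2.72 and 3.19 CPM in GS_diff2 and 477, 489 and 475 CPM in RCF, 173-fold lower (log2 -7.43 ± 0.065, adjusted p = 1.49e-36). Lpl, lipoprotein lipase itself, had 7.67, 6.79 and 7.68 CPM in GS_diff2 and 208, 201 and 203 CPM in RCF, 27.7-fold lower (log2 -4.79 ± 0.077, adjusted p = 7.58e-30). Fabp3, a fatty acid binding protein of heart and muscle, was a rise, at 99.4 ± 2.96 CPM in GS_diff2 and 18.3 ± 1.98 CPM in RCF (log2 2.43 ± 0.062, adjusted p = 1.19e-20). Pparg, the nuclear receptor of fat cells, was the other rise (log2 0.57 ± 0.22, adjusted p = 0.0215), its libraries overlapped, and its call was lost without GS_diff2 replicate 3 (log2 0.45), RCF replicate 1 (0.53) or RCF replicate 2 (0.37).

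Genes of the mitochondrial DNA were close to RCF in GS_diff2 and far below it in GS. Of 13, 4 were higher and 7 lower, with a median log2 of -0.38, whereas in GS all 13 were lower with a median of -2.92. Mt-co1, a cytochrome oxidase subunit, had 7981, 8074 and 8253 CPM in GS_diff2, 1029 ± 20.6 CPM in GS and 11261, 11138 and 11491 CPM in RCF, 1.39-fold lower than in RCF (log2 -0.48 ± 0.032, adjusted p = 2.05e-09). Mt-atp6, an ATP synthase subunit, went the other way, with 1595, 1657 and 1654 CPM in GS_diff2 and 805, 775 and 816 CPM in RCF, 2.05-fold higher (log2 1.03 ± 0.036, adjusted p = 1.31e-16). Mt-cytb, Mt-nd5 and Mt-nd6, of complexes III and I, were 1.503-fold, 1.48-fold and 1.47-fold lower. Members of the same genome thus moved in opposite directions by small factors.

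Glycolysis and hypoxia genes showed 20 rises and 7 falls among 30 tested, with a median log2 of 0.36. Car9, a carbonic anhydrase induced in hypoxia, had 115, 113 and 112 CPM in GS_diff2 and 3.04, 2.31 and 3.31 CPM in RCF, 38.98-fold higher (log2 5.28 ± 0.088, adjusted p = 1.86e-29). Egln3, a prolyl hydroxylase of the oxygen sensor, was 21.99-fold higher (log2 4.46 ± 0.05, adjusted p = 5.8e-34), and Ndrg1, a stress gene induced in hypoxia, 10.7-fold higher (log2 3.42 ± 0.052, adjusted p = 1.65e-30). Vegfa, the vessel growth factor, and Hk2, a hexokinase, also respond to hypoxia and fell slightly, 1.27-fold and 1.31-fold lower (adjusted p = 4.51e-11 and 1.4e-10).

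Genes of the ATF4 and unfolded protein responses moved both ways, 13 higher and 16 lower of 31 tested, and 30 of the 31 were called between GS_diff2 and GS. Trib3, a pseudokinase induced by ATF4, had 14.4, 13.7 and 11.96 CPM in GS_diff2, 329.7 ± 6.98 CPM in GS and 134, 135 and 135 CPM in RCF, 10.1-fold lower than in RCF (log2 -3.33 ± 0.055, adjusted p = 1.19e-29). Ddit3, the stress factor CHOP, had 31.7 ± 1.77 CPM in GS_diff2 and 227 ± 9.07 CPM in RCF, 7.15-fold lower (log2 -2.84 ± 0.049, adjusted p = 3.55e-29), and the cystine transporter Slc7a11 was 7.13-fold lower. Atf3, a stress-induced factor, was 8.41-fold higher (log2 3.07 ± 0.083, adjusted p = 4.47e-24), and Creld2 and Xbp1, of the unfolded protein response, 3.27-fold and 2.28-fold higher. Immediate early genes showed 12 rises and 14 falls among 27. Fosl1, a Fos family factor, had 130.3, 129 and 120.0 CPM in GS_diff2 and 4.81, 5.95 and 5.35 CPM in RCF, 23.6-fold higher (log2 4.56 ± 0.081, adjusted p = 7.5e-29), while Egr2 and Egr3, zinc finger factors of the early growth response, were 14.1-fold and 6.96-fold lower (adjusted p = 1.22e-21 and 1.42e-10).

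**Figure D5:**
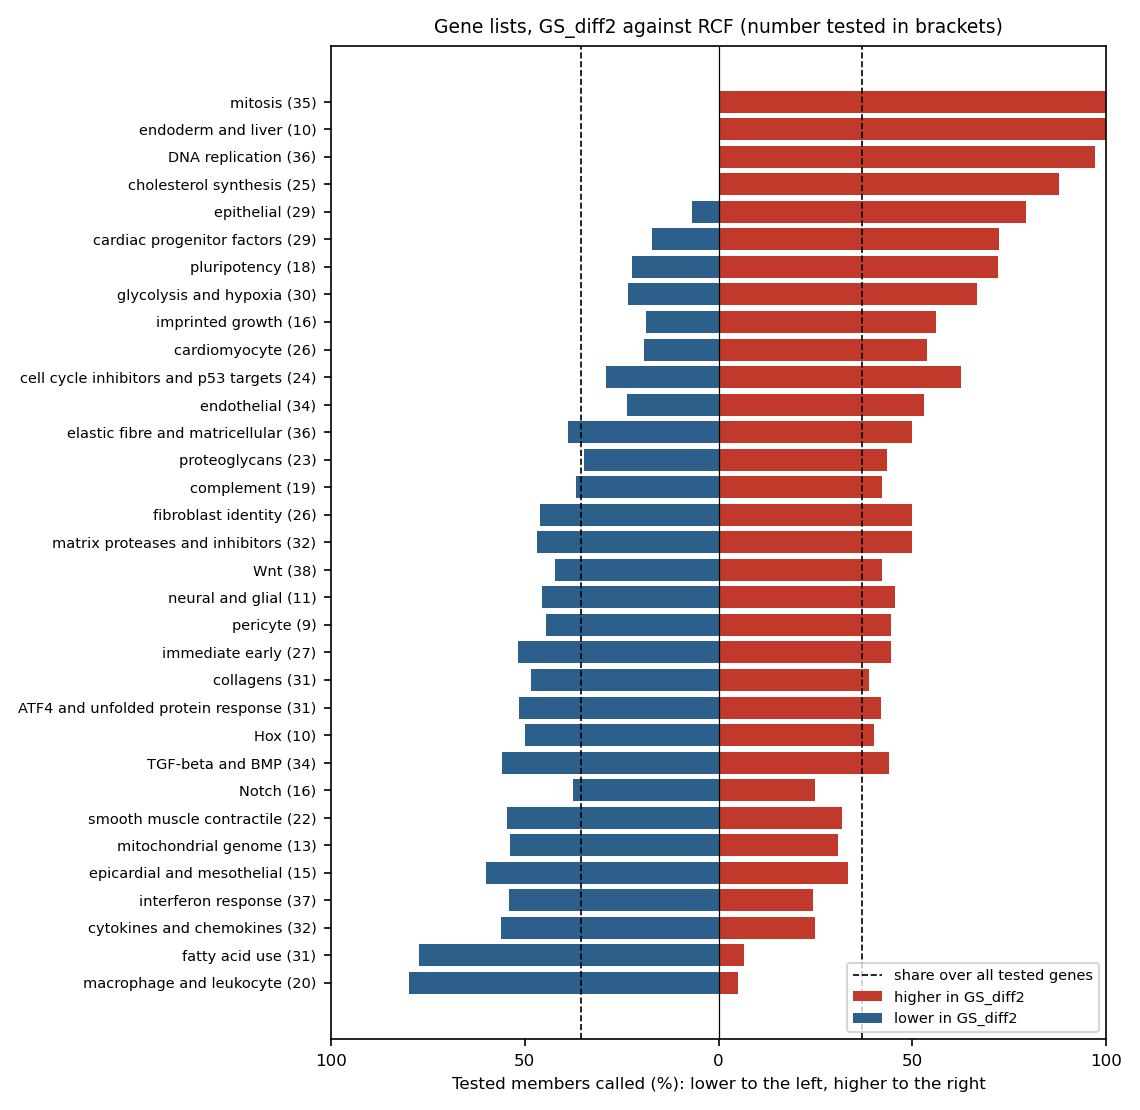
Share of the tested members of each gene list called higher (red, to the right) or lower (blue, to the left) in GS_diff2 than in RCF, in percent, with the number tested in brackets and dashed lines at the shares over all tested genes, 37.1% and 35.4%. Mitosis and endoderm genes (100% higher), DNA replication (97.2%) and cholesterol synthesis (88.0%) stand at the top, and macrophage and leukocyte genes (80.0% lower) and fatty acid genes (77.4% lower) at the bottom.

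Imprinted growth genes showed 9 rises and 3 falls among 16 tested (22 listed). Igf2 (ENSRNOG00000020369, Rnor_6.0 chromosome 1, 215828102 to 215846911, minus strand), the fetal growth factor that lies beside H19, had 92.1, 89.4 and 92.4 CPM in GS_diff2, 1.56 ± 0.204 CPM in GS and 0.211, 0.359 and 0.615 CPM in RCF, 231-fold higher than in RCF (log2 7.85 ± 0.14, adjusted p = 1.13e-28). It was also higher in GS_diff2 than in GS (log2 5.87, adjusted p = 3.94e-27). Cdkn1c, given above, and Rtl1, a retrotransposon-derived placental gene with 1.35 ± 0.0851 CPM against 0 counts in RCF, were other rises. Ndn, which restrains growth of neurons, was 7.09-fold lower and Igf2r, the receptor that clears Igf2, 2.03-fold lower (log2 -1.02 ± 0.036, adjusted p = 1.46e-15).

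Hox genes were low in both groups, 4.56 to 4.96 CPM in GS_diff2 and 10.01 to 12.2 CPM in RCF for the tested genes together. Of 39 listed, 10 were tested, 4 were higher and 5 lower. Hoxb3 and Hoxb2, anterior genes of the B cluster, had 0.0465 ± 0.04404 and 0.0519 ± 0.0898 CPM in GS_diff2 and 4.15 ± 0.01304 and 1.34 ± 0.401 CPM in RCF (adjusted p = 1.98e-10 and 1.66e-05), levels at which GS_diff2 had at most 3 counts a library. The rises were each below 1 CPM in GS_diff2.

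All 34 tested TGF-beta and BMP genes were called, 15 higher and 19 lower, with a median log2 of -0.48. The ligand Tgfb3 had 25.2, 26.1 and 23.3 CPM in GS_diff2 and 275, 286 and 287 CPM in RCF, 11.3-fold lower (log2 -3.50 ± 0.046, adjusted p = 5.16e-32), and the receptor Acvrl1 (ALK1) had 2.77 ± 0.502 CPM in GS_diff2 and 48.98 ± 2.18 CPM in RCF, 17.6-fold lower (log2 -4.13 ± 0.13, adjusted p = 1.25e-22). Secreted BMP antagonists rose, with Nog at 51.6, 63.3 and 53.9 CPM in GS_diff2 and 5.62, 4.26 and 6.91 CPM in RCF, 10.02-fold higher (log2 3.32 ± 0.15, adjusted p = 7.89e-09), and Grem1 5.64-fold higher. Id4, an inhibitor of helix-loop-helix factors, was 7.38-fold higher (adjusted p = 8.36e-26).

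Wnt genes showed 16 rises and 16 falls among 38 tested, with a median log2 of -0.14 (-0.48 at the floor). Each direction held 42.1%, near the 37.1% higher and 35.4% lower of all tested genes. The ligand Wnt7b had 29.9, 29.5 and 28.1 CPM in GS_diff2 and 0, 0.103 and 0.0473 CPM in RCF (adjusted p = 8.73e-27), and rests on 3 counts in RCF. The ligand Wnt4 had 5.08, 5.08 and 3.71 CPM in GS_diff2 and 69.05, 68.3 and 68.1 CPM in RCF, 14.8-fold lower (log2 -3.88 ± 0.18, adjusted p = 3e-11), the secreted inhibitor Sfrp4 was 13.7-fold lower, and the receptor Ror1 13.1-fold lower. Among 16 tested Notch genes, 4 were higher and 6 lower (25.0% and 37.5%). With 62.5% called, this list was below the 72.5% of all tested genes. The Notch ligands split, with Dll1 at 21.9, 20.2 and 20.6 CPM in GS_diff2 and 0.3801, 0.308 and 0.284 CPM in RCF, 62.9-fold higher (log2 5.98 ± 0.37, adjusted p = 6.96e-10), and Jag1 at 8.19, 7.71 and 6.06 CPM in GS_diff2 and 37.2, 36.6 and 34.4 CPM in RCF, 4.91-fold lower (log2 -2.30 ± 0.085, adjusted p = 1.2e-20). Heyl, a target of Notch signalling, had 0 counts in GS_diff2 and 1.47 ± 0.2601 CPM in RCF. Neural and glial genes, read as a check for another cell type, showed 5 rises and 5 falls among 11 tested, led by Stmn2, a tubulin regulator of neurons, 22.00-fold higher, and by the neuronal tubulin Tubb3, 6.14-fold lower (adjusted p = 2.12e-16 and 4.2e-20).

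Some genes differed from RCF in GS_diff2 while GS stood within 2-fold of it. Nptx1, a secreted pentraxin of neurons, had 181, 174 and 171 CPM in GS_diff2, 0.659 ± 0.293 CPM in GS and 0.676, 0.462 and 0.426 CPM in RCF, 328-fold higher than in RCF (log2 8.36 ± 0.13, adjusted p = 6.39e-28). Hmga1 (ENSRNOG00000000488, Rnor_6.0 chromosome 20, 7136007 to 7138980, plus strand), a chromatin protein of proliferating and embryonic cells, had 1056, 993 and 991 CPM in GS_diff2, 28.3 ± 1.31 CPM in GS and 34.1, 37.1 and 34.7 CPM in RCF, 28.7-fold higher than in RCF (log2 4.84 ± 0.048, adjusted p = 8.87e-32). Kcnt1, a sodium-activated potassium channel, and Gchfr, a regulator of biopterin synthesis, were 29.7-fold and 43.6-fold higher. New falls included Kcnd3, a potassium channel, 61.96-fold lower (log2 -5.95 ± 0.22, adjusted p = 1.41e-20), and Enpp2, the enzyme autotaxin that makes lysophosphatidic acid, 29.2-fold lower (log2 -4.87 ± 0.21, adjusted p = 3.94e-19). Cyp1b1, a cytochrome P450 induced through the aryl hydrocarbon receptor, had 46.7, 48.7 and 46.2 CPM in GS_diff2, 1058 ± 23.3 CPM in GS and 992, 1016 and 1005 CPM in RCF, 21.3-fold lower than in RCF (log2 -4.41 ± 0.035, adjusted p = 1.36e-37).

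Of the 262 genes that returned to the RCF level, 117 had been higher and 145 lower in GS. Eln, the elastin of elastic fibres, had 19.3, 17.3 and 18.1 CPM in GS_diff2, 213 ± 16.3 CPM in GS and 15.3, 15.2 and 14.8 CPM in RCF (log2 0.27 ± 0.075, adjusted p = 0.00202 between GS_diff2 and RCF). Ctgf, a matricellular growth factor induced by TGF-beta and YAP, had 2031, 1989 and 2058 CPM in GS_diff2, 10256 ± 213 CPM in GS and 1461, 1480.0 and 1479 CPM in RCF (log2 0.46 ± 0.021, adjusted p = 3.11e-18). Both were still above RCF by the test, within the 1.5-fold limit. Peg3, an imprinted zinc finger gene, and Kcnj8, the pore of a potassium channel of mural cells, were not called, and the libraries overlapped for Kcnj8. Peg3 had 33.7 ± 0.177 CPM in GS_diff2, 189 ± 18.03 CPM in GS and 31.4 ± 1.34 CPM in RCF (log2 0.11 ± 0.06, adjusted p = 0.118). Kcnj8 had 15.4 ± 2.42 CPM in GS_diff2, 1.86 ± 0.297 CPM in GS and 15.1 ± 0.642 CPM in RCF, with a 95% interval of -0.30 to 0.36 for the log2 difference, whose sign turned without GS_diff2 replicate 2 (log2 -0.11). The mitochondrial Mt-nd4l, of complex I, had 167 ± 6.65 CPM in GS_diff2, 13.2 ± 0.801 CPM in GS and 218 ± 3.89 CPM in RCF (log2 -0.38 ± 0.062, adjusted p = 5.7e-05). Mt-co1, given above, and Mt-cox3, another cytochrome oxidase subunit (log2 -0.34 ± 0.033, adjusted p = 8.71e-09), were in the same class.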

How the data were processed

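RNA of cultured cells was amplified for sequencing with the Ovation RNA-seq System v2, per the labels' protocols. The authors deposited whole-number read counts per gene, not normalized, for 12 libraries and 32545 genes. The submitters' processing notes name Bowtie 0.12.2 and the builds mm8 and Rnor_6.0 without roles; gene positions in the table are taken as Rnor_6.0. Neither the counting program nor strand use is given in the sources used here, so reads of overlapping or antisense genes and of close relatives cannot be separated.

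After TMM scaling, edgeR 4.0.16 (R 4.3.3) fitted 1 robust quasi-likelihood model, with group as the term, to all 12 libraries of 16255682 to 23117864 counts. The biological coefficient of variation was 9.72%, with 8 residual degrees of freedom. The filter filterByExpr left 14399 genes tested and 18146 untested. Contrasts were two-sided, adjusted by Benjamini-Hochberg over all tested genes, with a threshold of 0.05. Standard errors come from the quasi-likelihood F. A difference needed 2-fold, and a return a 95% interval inside 1.5-fold. Pairs of libraries within GS_diff2 and RCF differed by 4.44 to 6.81 times the sampling noise per degree of freedom, so none was counted as a duplicate.

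The groups and 33 gene lists (1007 symbols, 983 matched to the table, 806 tested) were chosen with earlier results of these data known. Named genes are Sall4 and Gata4, the 10 largest non-overlapping rises and falls at 10 CPM or more, up to 3 rises and 3 falls per list at 1 CPM or more, the 8 largest new and returned genes per direction, and the markers. Members with no promoter or miRNA entry are named only. A few genes that meet this rule are not reported here. Ccne1 and Mcm5 were chosen after their values were seen. Alternatives were DESeq2 1.42.0, limma-voom (limma 3.58.1), other scalings, filters, limits and sets of libraries, a replicate block, and each replicate left out. The fits were tested on simulated data. Figures used Python 3.11.15, pandas 2.3.3 and matplotlib 3.10.9.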

Additional observations from a re-analysis of the deposited data

How the results depend on the processing

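Counts of genes higher and lower in GS_diff2 were 5336 and 5099, and 5297 and 5068 with a replicate block, 5314 and 5060 in DESeq2, 5414 and 5226 in limma-voom, and 5231 and 5209 with library totals alone, which moved the median log2 by -0.015. With 1 replicate left out they were 5152 to 5170 and 4870 to 4930. Same-numbered libraries correlated in their deviations at -0.0217 to 0.0931 and others at -0.0916 to 0.0697, and 1 of 3 numbers correlated best with itself, so the numbers were not taken to pair the libraries. The block lost the call of Col1a2 (log2 -1.14).

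The classes moved most with their limits. With 1.5-fold for a difference and 2-fold for a return, 3565 genes were already apart in GS (2332 in the report), 351 ran the opposite way, and of those apart in GS 1766 had returned and 282 had reversed. With 3-fold and 1.5-fold, 953 were new in GS_diff2, 38 ran the opposite way, 58 had returned and 38 had reversed, by construction of the limits. Leaving out the mitochondrial genes left 0 higher and 0 lower in that list, since they were no longer tested. With the GS_diff2 and RCF libraries alone, 1 Hox gene was higher, against 4 over all 12 libraries, and the call of Pparg was lost (log2 0.57); the cause was not tested. With 1 replicate left out, DNA replication genes lower numbered 0 to 1 and fatty acid genes higher 1 to 3. Left-out replicates gave Tek a log2 of -0.0344 to 0.15 and Kcnj8 one of -0.11 to 0.11, so that both changed sign, and neither was called. At this depth a level below about 3 counts per library cannot be told from 0, which limits Cdh5, Kdr, Myh6, Actn2 and the Hox genes.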

Other observations

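The genes named here were chosen after their values were seen, so their tests are a description. Flt1, the other main VEGF receptor, stood apart from Kdr, with 268, 264 and 272 CPM in GS_diff2, 354 ± 21.1 CPM in GS and 14.02, 14.8 and 14.3 CPM in RCF, 18.7-fold higher than in RCF (log2 4.22 ± 0.047, adjusted p = 5.8e-34). Hmga2, the partner of Hmga1 in embryonic cells and a target of let-7 microRNAs, had 47.2, 49.4 and 46.8 CPM in GS_diff2, 1.21 ± 0.365 CPM in GS and 0.211, 0.616 and 0.426 CPM in RCF, 116-fold higher than in RCF (log2 6.86 ± 0.21, adjusted p = 2e-21). Both Hmga genes were higher in GS_diff2 than in GS as well (log2 5.16, adjusted p = 1.19e-31 for Hmga1 and log2 5.31, adjusted p = 6.84e-20 for Hmga2). Mycn, a Myc factor of embryonic progenitors, had 50.4 ± 2.28 CPM in GS_diff2 and 0.415 ± 0.2795 CPM in RCF (log2 6.89 ± 0.14, adjusted p = 1.1e-25). Fgf10, a growth factor of heart and lung buds, had 61.1 ± 1.04 CPM in GS_diff2 and 0.997 ± 0.203 CPM in RCF (log2 5.93 ± 0.1, adjusted p = 3.22e-29), while Cxcl12, a stromal chemokine that holds blood progenitors, had 62.1 ± 3.08 CPM in GS_diff2 and 654 ± 5.11 CPM in RCF (log2 -3.40 ± 0.049, adjusted p = 1.73e-26). Tert, the telomerase catalytic subunit, was low in both groups, with 4.85 ± 0.399 CPM in GS_diff2 and 2.44 ± 0.231 CPM in RCF (log2 0.99 ± 0.25, adjusted p = 0.000739).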
